A study of Mus musculus with 6 samples.

Results

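Amino acid transporters of the plasma membrane bring leucine, arginine, glutamine and other amino acids into a cell. A T cell that has been activated through its antigen receptor takes up far more of them than a resting cell, for protein synthesis and for the signalling complex mTORC1, which senses amino acid supply. Transporter genes are among those that activated T cells switch on, and Slc7a5, which works with the heavy chain Slc3a2, is the best known of them in CD8+ T cells. Open chromatin at these genes marks their promoters and candidate regulatory sites.

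The 7 transporter genes described here are Slc7a5, Slc1a5, Slc7a1, Slc7a6, Slc38a1, Slc38a2 and Slc43a1. Their open regions were taken from ATAC-seq peak lists of mouse T cells, a peak being a stretch where a transposase cut DNA more often than its surroundings. A peak belonged to a gene if its summit had that gene as the nearest protein-coding gene body, inside it or within 100 kb. The peaks were thus chosen by the measured positions of called summits, so the number of peaks at each gene is given as a description. By this rule 477 of 573921 peaks belonged to the 7 genes. Peaks of the 6 lists that shared at least 1 bp were merged into regions, which gave 106 regions at the 7 genes among 134174 in all. The farthest peak lay 78748 bp from its gene. Beyond the limit, 12 peaks in 2 regions had Slc38a2 as their nearest gene, from 127924 bp on, and were left out. The taller of these, on chromosome 15 from 96827392 to 96827840, had pileups of 62, 52 and 64 with Res-shFabp7 and 41, 43 and 58 with Res-ctrl.

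The study compared a pair of culture conditions, with 3 libraries each. In the first, named Res-shFabp7, T cells shared a transwell with lung adenocarcinoma cells that resist PD-1 blockade and carry a knockdown of Fabp7, a fatty acid binding protein. In the other, named Res-ctrl, the tumour cells were the same resistant cells as a control. In both, the T cells were mouse spleen CD8+ cells, left over after other cells had been taken out with beads. They were stimulated through CD3 (antibody at 5 µg/mL) and CD28 (antibody at 1 µg/mL) and kept 48 h in the lower chamber, apart from the tumour cells behind a membrane with 0.4 µm pores. Knockdown and control concern the tumour cells only. The labels call the replicates biological. They do not say how many hairpins or clones stand behind the knockdown or whether the T cells of the replicates came from separate mice, so p-values measure the spread between these libraries, which may be partly technical.

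The lists held 100243 to 105796 peaks with Res-shFabp7 and 82153 to 96310 with Res-ctrl. A relative measure of depth, the most frequent background pileup of a list, was 0.868 to 1.03 with Res-shFabp7 and 0.608 to 1.01 with Res-ctrl. The 2 shallowest lists were those of Res-ctrl replicates 1 and 2. All 9 CD8 T cell markers examined, among them Cd3e, Cd8a and Bcl11b, had a region called in all 6 libraries. Markers of other cells with such a region numbered 5 of 7 for B cells, 3 of 7 for myeloid cells, 1 of 4 for NK cells and 2 of 6 for epithelial tumour cells, while Ms4a1, Krt8 and Sftpc had no region at all. The CD8 T cell markers together had 183 to 196 peaks per library with Res-shFabp7 and 159 to 191 with Res-ctrl. The B cell markers together had 22 to 26 peaks per library with Res-shFabp7 and 12 to 18 with Res-ctrl, the myeloid markers 21 to 28 and 17 to 21, the NK cell markers 14 to 17 and 12 to 16, and the epithelial markers 17 to 19 and 12 to 13, in the same order of groups.

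The start sites of 4 of the 7 genes could be read as sequence. Promoter windows from RefSeq (build GRCm38.p6, the assembly behind mm10) run from 250 bases before to 50 bases after a gene's start and are printed 5′ to 3′ on the gene's strand. They are shown, 1 per gene, because each of these 4 lies wholly inside a region called in all 6 libraries. Over all 32851 windows of the table, 36.7% overlapped such a region. Capitals mark matches, on either strand, to the motifs searched, which were CACGTG (E-box), TGANTCA (AP-1), TGATGNAA (the core of an amino acid response element), TGTGGT (RUNX) and CCGGAA (ETS). No match of 1 motif overlapped that of another.
Slc7a1, minus strand, chr5:148399855-148400154: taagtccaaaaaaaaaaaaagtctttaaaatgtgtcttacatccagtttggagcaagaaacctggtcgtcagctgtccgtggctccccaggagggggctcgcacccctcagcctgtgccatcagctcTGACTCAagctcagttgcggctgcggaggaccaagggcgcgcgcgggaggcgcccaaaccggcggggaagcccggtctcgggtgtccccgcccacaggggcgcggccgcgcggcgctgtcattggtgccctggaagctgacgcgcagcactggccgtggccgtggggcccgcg
Slc7a6, plus strand, chr8:106168604-106168903: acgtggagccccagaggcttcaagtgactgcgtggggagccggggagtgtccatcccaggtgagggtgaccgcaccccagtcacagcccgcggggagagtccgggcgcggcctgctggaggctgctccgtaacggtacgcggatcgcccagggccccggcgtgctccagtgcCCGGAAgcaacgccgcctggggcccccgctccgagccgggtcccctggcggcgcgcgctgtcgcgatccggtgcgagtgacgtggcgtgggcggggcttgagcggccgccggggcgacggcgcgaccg
Slc38a2, minus strand, chr15:96699679-96699978: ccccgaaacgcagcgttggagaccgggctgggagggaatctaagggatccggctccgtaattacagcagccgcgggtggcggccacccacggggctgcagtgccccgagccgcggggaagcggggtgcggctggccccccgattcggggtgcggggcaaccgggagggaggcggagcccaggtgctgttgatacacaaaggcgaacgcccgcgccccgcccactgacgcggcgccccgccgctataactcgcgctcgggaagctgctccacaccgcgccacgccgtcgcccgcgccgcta
Slc43a1, plus strand, chr2:84840073-84840372: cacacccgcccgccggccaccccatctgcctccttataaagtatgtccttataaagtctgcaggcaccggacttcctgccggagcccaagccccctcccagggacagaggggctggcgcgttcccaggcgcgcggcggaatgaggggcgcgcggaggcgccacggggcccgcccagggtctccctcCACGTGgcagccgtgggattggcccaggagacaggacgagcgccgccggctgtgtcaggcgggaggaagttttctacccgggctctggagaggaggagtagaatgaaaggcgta

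The Slc7a1 window holds an AP-1 match at its position 128, the Slc7a6 window an ETS match at position 173 and the Slc43a1 window an E-box at position 187, while the Slc38a2 window matches none of the 5 motifs. Of all windows, 7.81% hold the AP-1 letters, 14.9% the ETS letters and 7.15% the E-box letters, and of the 12044 windows that overlap a region called in all 6 libraries, 4.76%, 30.3% and 10.8% do. The amino acid response element core, found in 3.97% of all windows, and the RUNX letters, found in 16.8%, are in none of the 4. A further annotated start of Slc7a1, on chromosome 5 with its window from 148392766 to 148393065, overlapped no region called in all 6 libraries. Slc7a6 also has a further window, on chromosome 8 from 106168671 to 106168970, wholly inside the same region as the printed window. It overlaps the printed window, holds the ETS letters at its position 106 and is not printed.

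Slc7a5 encodes the light chain of a transporter that brings leucine and other large neutral amino acids into the cell in exchange for glutamine. Its gene body spans chromosome 8 from 121881146 to 121907686, and 7 regions were assigned to it. Of these, 3 were called in all 6 libraries. A pair of them lies side by side inside the gene, 75 bp apart, here named the inner left (121898146 to 121898371) and inner right region (121898447 to 121898853). The third (121907235 to 121908282) spans the gene's end with the higher coordinate. No promoter window was at hand for Slc7a5, so this region was not checked against an annotated start. The name gene end, used for it below, refers to the coordinate only and does not say which end is the start. Exons and introns are not in the annotation used here.

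All 3 Slc7a5 regions stood higher with Res-shFabp7. At the inner left region the summit pileup, the coverage at the peak's top, was 90, 70 and 83 with Res-shFabp7 and 33, 26 and 58 with Res-ctrl. At the inner right region it was 130, 119 and 108 with Res-shFabp7 and 49, 50 and 99 with Res-ctrl. At the gene end it was 193, 156 and 198 with Res-shFabp7 and 118, 93 and 160 with Res-ctrl. Raw pileups rise with depth. At each of the 3 regions Res-ctrl replicate 3, the deepest Res-ctrl library, was the highest of its group, and at the gene end it stood above Res-shFabp7 replicate 2.

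**Figure D1:**
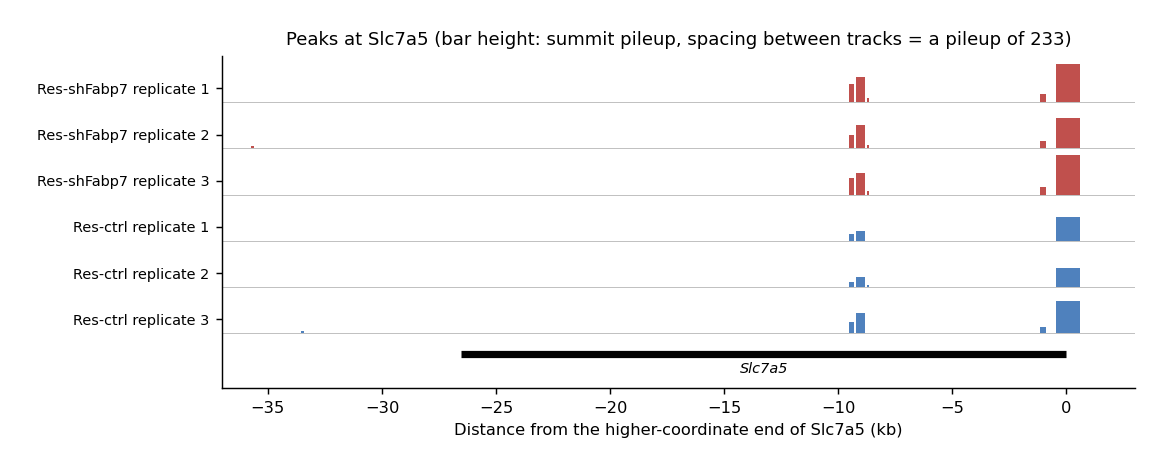
Merged regions at Slc7a5 in each library, placed by distance in kb from the gene's higher-coordinate end (black bar: gene body), with bar height proportional to the summit pileup. The inner pair inside the gene and the gene-end region are present in all 6 libraries and reach pileups of up to 130 and 198 with Res-shFabp7, against up to 99 and 160 with Res-ctrl, while very narrow regions are widened to stay visible.

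Heights were therefore ranked within each library over the 56610 regions called in all 6. The inner left region lay at the 74.1, 68.8 and 72.6 percentiles of height with Res-shFabp7 and at the 51.5, 45.7 and 58.4 percentiles with Res-ctrl. The inner right region lay at the 83.8, 83.0 and 79.7 percentiles with Res-shFabp7 and at the 65.2, 68.7 and 75.1 percentiles with Res-ctrl. The gene end lay at the 91.7, 88.8 and 92.1 percentiles with Res-shFabp7 and at the 86.9, 84.5 and 86.6 percentiles with Res-ctrl. The groups did not overlap at any of the 3 regions.

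Percentiles were turned into normal scores (height scores) and compared by limma over all 56610 regions. The inner left region differed by 0.53 ± 0.106 score units (SE), Res-shFabp7 minus Res-ctrl, with a limma adjusted p of 0.00277 over all regions. Relative to the library's median region, its mean height with Res-shFabp7 was 1.73 times that with Res-ctrl. The inner right region differed by 0.41 ± 0.0851 (SE, limma adjusted p = 0.00439), at a ratio of 1.5, and the gene end by 0.25 ± 0.0708 (SE, limma adjusted p = 0.0313), at a ratio of 1.20. Over all regions tested, 2.72% were called higher with Res-shFabp7 and 1.19% lower. In libraries made from many cells, more cells with the site open and a more open site in each cell cannot be told apart.

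The heights within the gene were also set against each other. The inner left region reached 0.466, 0.449 and 0.419 of the gene-end pileup of the same library with Res-shFabp7, and 0.280, 0.280 and 0.363 with Res-ctrl. The groups did not overlap, and the lowest ratios were those of the 2 shallowest lists. How often such ratios separate the groups over the series is not given here. The part of depth in them was not tested. For the inner right region the ratios were 0.674, 0.763 and 0.545 with Res-shFabp7 and 0.415, 0.538 and 0.619 with Res-ctrl, which overlapped.

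The calls at Slc7a5 were lost under other settings, with no change of direction except from the fold at the inner right region. With relative depth as a covariate the differences were 0.20 to 0.39 (limma adjusted p = 0.146 to 0.306), and against Res-ctrl replicate 3 alone, whose depth lay within the Res-shFabp7 range, they were 0.23 to 0.37 (limma adjusted p = 0.24 to 0.388). That comparison has a control arm of 1 library, which is assumed to vary like the Res-shFabp7 libraries, so it changes depth and the number of controls at once. Ranking the authors' fold over local background in place of pileup gave -0.08 to 0.07 (limma adjusted p = 0.812 to 0.964). The inner left region was called whichever library was left out, at a limma adjusted p of up to 0.0449. The inner right region was lost without Res-shFabp7 replicate 1 (limma adjusted p = 0.0552). The gene end was lost without Res-shFabp7 replicate 1 or 3 or Res-ctrl replicate 1 or 2 (limma adjusted p = 0.0528 to 0.165). Among other-cell markers, the 3 tested regions of the B cell factor Pax5 were also called higher, as 3 of the 9 tested B cell marker regions, and 0 of 11 myeloid, 0 of 9 NK cell and 0 of 10 epithelial marker regions were called. The part of other cells in the Slc7a5 heights was not tested.

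The authors' fold divides the summit by the local background of the same library, and that background differed at Slc7a5. At the inner left region the fold was 13.7, 12.5 and 14.01 with Res-shFabp7 and 11.2, 10.6 and 13.0 with Res-ctrl. The local background recovered from it was 5.62, 4.70 and 5.00 with Res-shFabp7 and 2.03, 1.55 and 3.53 with Res-ctrl. It was nearly the same at the inner right region, 5.64, 4.74 and 5.02 with Res-shFabp7 and 2.02, 1.52 and 3.46 with Res-ctrl. The part of the peaks' own signal in this background was not tested. At the inner right region the fold was 19.7, 20.9 and 18.1 with Res-shFabp7 and 16.6, 20.3 and 22.4 with Res-ctrl. At the gene end it was 18.9, 18.1 and 19.6 with Res-shFabp7 and 18.6, 16.5 and 18.3 with Res-ctrl. The groups overlapped in fold at all 3 regions. Divided by the most frequent background of its list, the local background at the inner left region was 5.48, 5.42 and 5.21 with Res-shFabp7 and 2.87, 2.55 and 3.50 with Res-ctrl. At the gene end it was 9.02, 8.84 and 9.55 with Res-shFabp7 and 7.59, 7.73 and 7.76 with Res-ctrl. The groups did not overlap in this ratio at any of the 3 regions. The share of all regions that separate the groups in it is not given here.

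**Figure D2:**
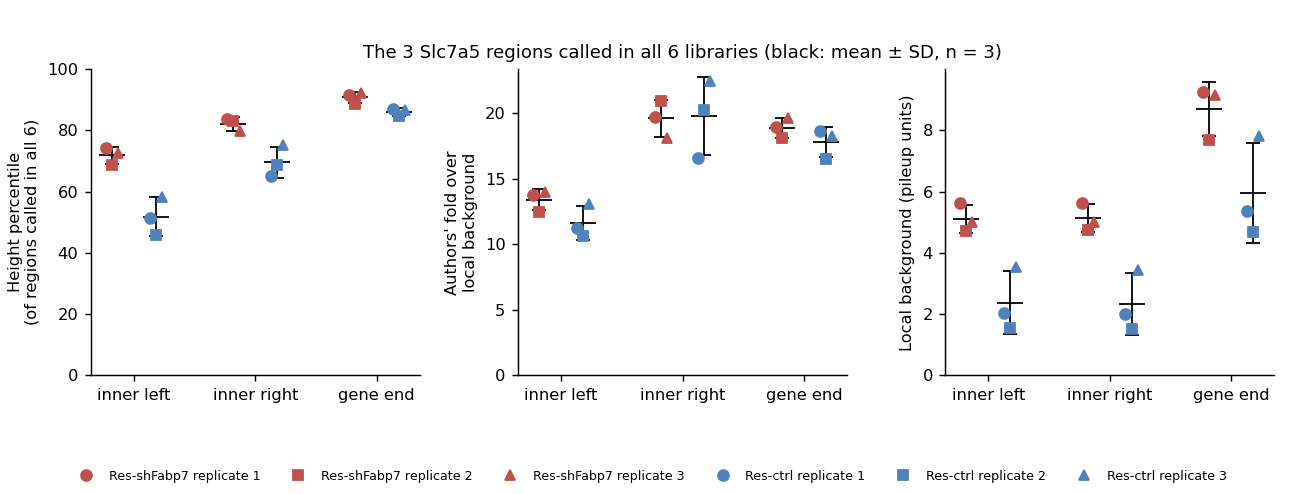
Height percentile, authors' fold over local background and local background (vertical axes) of the 3 Slc7a5 regions in each library (points), with group mean ± SD in black, n = 3. Percentiles do not overlap between groups at any region, while the folds overlap at all 3 regions and the local background is higher in every Res-shFabp7 library at the inner pair. At the gene end the groups overlap in local background, which is not scaled to depth here.

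The other 4 Slc7a5 regions were called in part of the libraries. A small region beside the inner pair (121898929 to 121899043) had pileups of 22, 16 and 18 in the Res-shFabp7 libraries and 10 in Res-ctrl replicate 2. A region just inside the gene end (121906539 to 121906777) had 41, 36 and 39 in the Res-shFabp7 libraries and 30 in Res-ctrl replicate 3. Neither was specific to a group. The last 2 lay outside the far end of the gene, 1 in Res-shFabp7 replicate 2 and 1 in Res-ctrl replicate 3. Slc7a5 had 6, 6 and 6 peaks with Res-shFabp7 and 3, 6 and 6 with Res-ctrl. The protein-coding genes with the most similar numbers of peaks over the 6 libraries were Tlr8 and Mrpl23, at a Euclidean distance of 1 peak. Next was Tln1, at 1.41, where 11 genes lay at most as far. Among those tied, Tln1 was taken for its closer summed −log10 q.

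Among the other 6 genes none of 49 tested regions passed the limma test, the lowest adjusted p being 0.163. At an unadjusted limma p under 0.05 there were 7 of them. Counting Slc7a5, 3 of 52 tested regions were called higher and 0 lower, and at an unadjusted p under 0.05 there were 5 higher and 5 lower, where the shares over all regions were 10.3% and 8.81%. Height percentiles of all Res-shFabp7 libraries lay above those of all Res-ctrl libraries in 6 of the 52 regions and below them in 7, where over all regions 11.6% and 11.2% did. The median difference was -0.04 over the 52 regions and -0.01 over all regions tested.

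**Figure D3:**
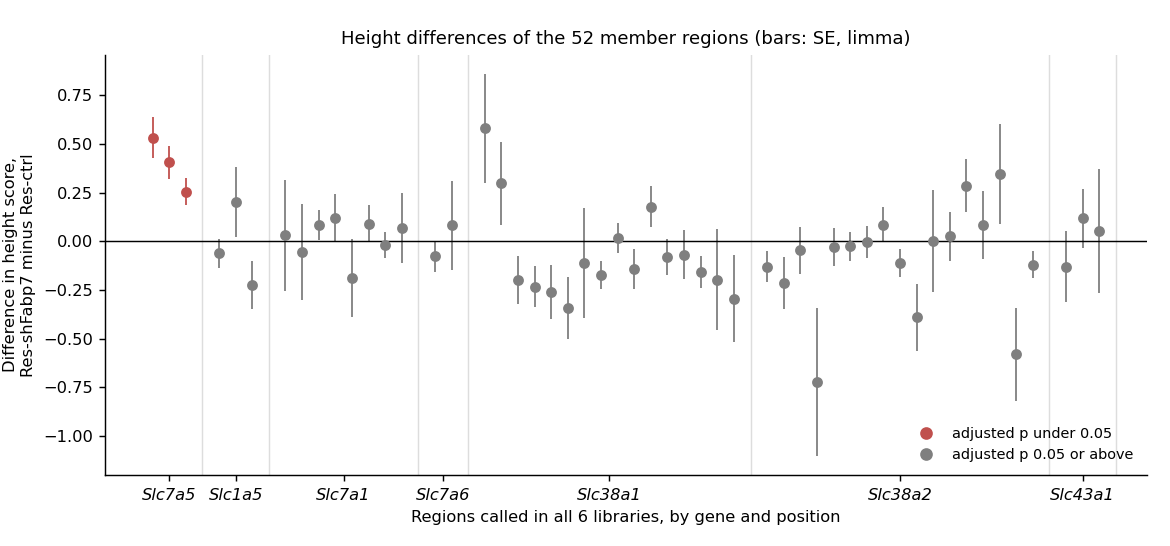
Difference in height score, Res-shFabp7 minus Res-ctrl (vertical axis), with its SE for each of the 52 regions called in all 6 libraries, ordered by gene and position. The 3 Slc7a5 regions, in red, are the called ones at 0.25 to 0.53, and the 49 regions of the other 6 genes lie between -0.72 and 0.58 with no call.

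The carriers of cationic amino acids came next. Slc7a1, which imports arginine and lysine, spans chromosome 5 from 148327410 to 148399904 and had 24 regions, 8 of them in all 6 libraries. Its start, printed above, lies in a region of 1418 bp (148399034 to 148400451) with pileups of 198, 188 and 211 with Res-shFabp7 and 173, 142 and 219 with Res-ctrl. In percentiles of height this was 92.1, 92.1 and 93.0 with Res-shFabp7 and 93.4, 92.4 and 92.3 with Res-ctrl, so the groups overlapped (difference -0.02 ± 0.0658, SE; limma adjusted p = 0.905). Inside the gene, a region from 148342302 to 148342925, picked after its values were seen, had 148, 111 and 113 with Res-shFabp7 and 87, 81 and 122 with Res-ctrl. Its difference was 0.08 ± 0.0773 (SE, limma adjusted p = 0.596). Slc7a1 had 15, 14 and 16 peaks with Res-shFabp7 and 14, 13 and 16 with Res-ctrl.

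Slc7a6, a light chain that exchanges cationic for neutral amino acids and also pairs with Slc3a2, had the fewest regions of the 7 genes, 3 in all. The start region on chromosome 8 (106168323 to 106169300) had pileups of 98, 103 and 123 with Res-shFabp7 and 104, 76 and 124 with Res-ctrl, and the groups overlapped in percentile too (difference -0.08 ± 0.079, SE; limma adjusted p = 0.644). A region at the gene's other end (106198712 to 106199055), named outside the rule for regions, had 21, 26 and 30 with Res-shFabp7. With Res-ctrl it had 16, 13 and 27, at a difference of 0.08 ± 0.228 (SE, limma adjusted p = 0.887).

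Slc1a5, an exchanger of glutamine, alanine and serine, spans chromosome 7 from 16781334 to 16798274. Of its 10 regions 3 were called in all 6 libraries. The tallest (16781099 to 16781426) covers the lower-coordinate end of the gene and had pileups of 148, 125 and 137 with Res-shFabp7 and 135, 91 and 158 with Res-ctrl. In percentiles it stood at 86.6, 84.2 and 85.2 with Res-shFabp7 and 89.4, 84.1 and 86.4 with Res-ctrl (difference -0.06 ± 0.0737, SE; limma adjusted p = 0.699). A region inside the gene (16784770 to 16785018), named outside the rule for regions, had 55, 29 and 40 in the Res-shFabp7 libraries. It had 25 in Res-ctrl replicate 3 and no peak in Res-ctrl replicates 1 and 2, the shallowest lists.

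Slc38a1 and Slc38a2 encode sodium-coupled carriers of glutamine and other small neutral amino acids, and Slc38a2 is known to be induced by amino acid starvation. They neighbour each other on chromosome 15, Slc38a1 from 96571418 to 96643438 and Slc38a2 from 96687392 to 96699728. Their regions spread over 260605 bp and make up 56 of the 106 regions, 28 at each gene. Of these, 33 were called in all 6 libraries. At Slc38a2 only 5 of the 28 regions lay inside the gene.

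The tallest region of the pair lay 78730 bp outside Slc38a2 (96778295 to 96778846). It had pileups of 216, 189 and 210 with Res-shFabp7 and 164, 173 and 269 with Res-ctrl. In percentiles it stood at 93.5, 92.2 and 93.0 with Res-shFabp7 and 92.6, 95.1 and 95.2 with Res-ctrl (difference -0.12 ± 0.0683, SE; limma adjusted p = 0.340). The groups overlapped.

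At the Slc38a2 start, printed above, the region from 96699639 to 96700033 had pileups of 128, 109 and 112 with Res-shFabp7 and 93, 87 and 129 with Res-ctrl. Its percentiles were 83.4, 80.9 and 80.5 with Res-shFabp7 and 82.0, 83.1 and 81.8 with Res-ctrl, a difference of -0.02 ± 0.0747 (SE, limma adjusted p = 0.897). The strongest Slc38a1 region by its lowest −log10 q lay inside that gene (96598956 to 96599376). Its pileups were 121, 138 and 138 with Res-shFabp7 and 117, 121 and 176 with Res-ctrl. Its percentiles, 82.1, 86.3 and 85.3 with Res-shFabp7 and 86.8, 89.7 and 88.5 with Res-ctrl, did not overlap, but the difference of -0.17 ± 0.0722 (SE) did not pass (limma adjusted p = 0.172).

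**Figure D4:**
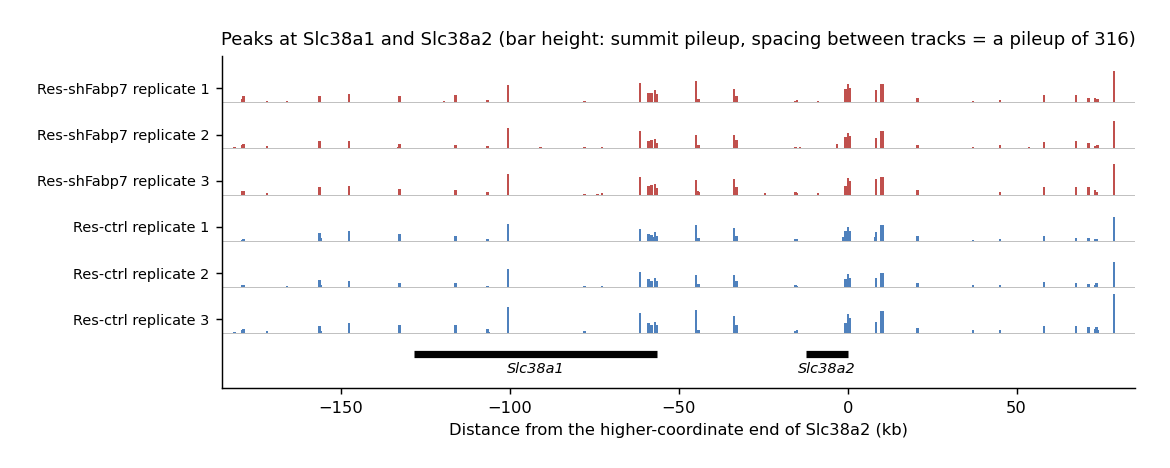
Merged regions at Slc38a1 and Slc38a2 in each library, placed by distance in kb from the higher-coordinate end of Slc38a2 (black bars: gene bodies), with bar height proportional to the summit pileup and narrow regions widened. The same tall regions recur in all 6 libraries, the tallest at the right edge with pileups of 189 to 216 with Res-shFabp7 and 164 to 269 with Res-ctrl.

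The extremes among the tested regions of the 7 genes were weak peaks near Slc38a1 and Slc38a2. The most positive difference, 0.58 ± 0.281 (SE, limma adjusted p = 0.249), was at 96520473 to 96520764, 50783 bp from Slc38a1, with pileups of 25, 22 and 25 with Res-shFabp7 and 8, 12 and 19 with Res-ctrl. The most negative, -0.72 ± 0.381 (SE, limma adjusted p = 0.296), was at 96684221 to 96684421, 3109 bp from Slc38a2, with pileups of 9, 11 and 15 with Res-shFabp7 and 9, 13 and 17 with Res-ctrl. Differences were negative in 23 of the 33 tested regions of the pair, or 69.7%, and in 52.2% of all regions tested. Neighbouring regions of 1 locus are not independent of each other.

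Slc43a1 encodes a facilitated carrier of large neutral amino acids and spans chromosome 2 from 84838855 to 84863586. Of its 6 regions 3 were called in all libraries. The start region with the E-box window (84840022 to 84840720) was of modest height, with pileups of 40, 45 and 36 with Res-shFabp7 and 26, 24 and 35 with Res-ctrl. In percentiles it stood at 43.7, 52.5 and 40.9 with Res-shFabp7 and 42.2, 42.5 and 38.4 with Res-ctrl (difference 0.12 ± 0.151, SE; limma adjusted p = 0.720). The start regions of Slc7a1, Slc7a6 and Slc38a2 stood at higher percentiles than this in every library.

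The presence and absence of peaks separated the groups at 1 region of the 7 genes. No region had a peak in 3 of 3 Res-shFabp7 and 0 of 3 Res-ctrl libraries, where 2.28% of all regions did, and 1 of 106 had a peak in 3 of 3 Res-ctrl and 0 of 3 Res-shFabp7 libraries, where 0.155% of all regions did. With 106 regions neither count is read as a departure from those shares. The Res-ctrl region lay 27521 bp from Slc38a1 on chromosome 15 (96543857 to 96543961), with pileups of 17, 13 and 13 and folds of 7.30, 6.20 and 5.58 with Res-ctrl. It lies close to a wider region (96543154 to 96543773) that had a peak in every library, and it disappeared as a region of its own when peaks were merged across gaps of 200 bp. For a region taken alone, 3 libraries against 3 cannot go below an exact p of 0.1, so no region was tested for presence.

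Of the 106 regions, 52 (49.1%) were called in all 6 libraries, against 42.2% of all regions, and 26 (24.5%) in 1 library, against 23.3%. The regions called in all 6 had a median width of 366 bp at the 7 genes and 353 bp over the series. By presence alone, 3 of the 106 regions (2.83%), 1 each at Slc7a5, Slc1a5 and Slc38a1, were missing from Res-ctrl replicates 1 and 2 only, and 2.90% of all regions were.

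Together the 7 genes had 83, 80 and 80 peaks with Res-shFabp7 and 75, 73 and 86 with Res-ctrl, so the groups overlapped. Per 1000 peaks of a list this was 0.794, 0.756 and 0.798 with Res-shFabp7 and 0.884, 0.889 and 0.893 with Res-ctrl, without overlap. When each list was limited to its strongest 82153 peaks, the length of the shortest, the 7 genes had 66, 66 and 67 peaks with Res-shFabp7 and 75, 73 and 74 with Res-ctrl, so the difference in peak number turned round. Most of that difference was at Slc38a2, with 19, 20 and 19 against 23, 22 and 22, and at Slc38a1, with 19, 19 and 18 against 22, 21 and 20, each given with Res-shFabp7 before Res-ctrl. The rule used these peaks, so the numbers are a description. How often other sets of genes separate the groups in this way is not given here.

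**Figure D5:**
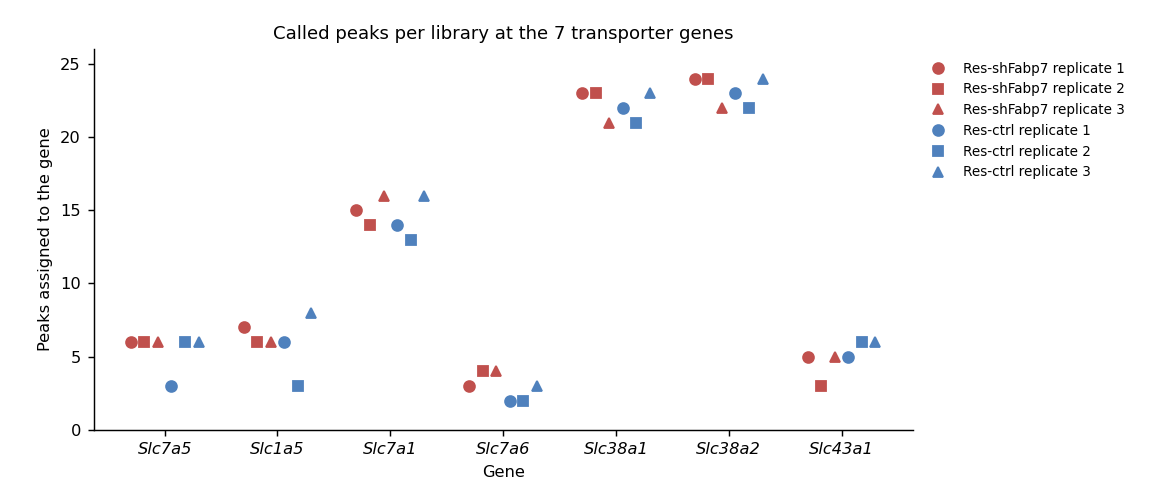
Number of called peaks (vertical axis) at each of the 7 genes in each library (points). Slc38a1 and Slc38a2 have 21 to 24 peaks in every library and Slc7a6 has 3 to 4 with Res-shFabp7 and 2 to 3 with Res-ctrl, and no gene separates the groups.

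Other amino acid transporters were described from a list of 21 genes with 204 regions. Of these, 7 regions had a peak in all 3 Res-shFabp7 libraries and in no Res-ctrl library, and 0 the other way round, where 2.28% and 0.155% of all regions did. By the rule for named genes, Slc6a9, a glycine carrier, Slc7a11, the cystine and glutamate exchanger, and Slc1a4, a carrier of alanine, serine and cysteine, had 1 such region each. In height 5 of 86 tested regions were called higher by limma and 0 lower, 2 each at Slc3a2 and Slc16a10 and 1 at Slc43a3, where 2.72% and 1.19% of all regions were. With relative depth as a covariate none of the 5 was called (limma adjusted p = 0.145 to 0.347). These 3 genes were chosen after their values were seen. Over the whole series, 3065 regions were specific to Res-shFabp7 and 208 to Res-ctrl. With lists of equal length these numbers were 1230 and 573. The part of list length in the group-specific counts of this and the following gene lists was not tested.

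Slc3a2 is the heavy chain that carries Slc7a5 and Slc7a6 to the cell surface. The region inside the gene on chromosome 19 (8712850 to 8713152) had pileups of 87, 77 and 74 with Res-shFabp7 and 35, 35 and 57 with Res-ctrl. Its percentiles were 73.2, 71.7 and 69.1 with Res-shFabp7 and 53.7, 56.7 and 57.8 with Res-ctrl. The difference was 0.41 ± 0.0997 (SE, limma adjusted p = 0.0129), and this was 1 of 2 regions called among the 8 tested at the gene. With relative depth as a covariate the adjusted p was 0.145, against Res-ctrl replicate 3 alone 0.245, and from the authors' fold 0.321 (limma), all 3 differences being positive.

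Amino acid sensing to mTORC1 was described by 25 genes with 234 regions, of which 9 were specific to Res-shFabp7 in the same sense and 1 to Res-ctrl, beside 3065 and 208 in the whole series (2.28% and 0.155%). Sesn3 had 2 of the 9, and Sesn1 and Mtor had 1 each, while the Res-ctrl region was at Sesn2. Sestrins restrain mTORC1 when amino acids are short, and Mtor is its kinase. Of 91 tested heights 3 were called higher, at Fnip1, Mtor and Rptor, and 2 lower, at Rptor and Sesn1, where the shares over all regions were 2.72% and 1.19%. With relative depth as a covariate none of the 5 was called (limma adjusted p = 0.0739 to 0.295). Rptor, the scaffold of mTORC1, thus had a call in each direction among its 17 tested regions. The lower one (chromosome 11, 119847066 to 119847639) had pileups of 46, 29 and 36 with Res-shFabp7 and 46, 54 and 59 with Res-ctrl (difference -0.59 ± 0.13, SE; limma adjusted p = 0.00636). Its limma adjusted p was 0.113 with the depth covariate, 0.438 against Res-ctrl replicate 3 alone and 0.192 from the authors' fold.

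The starvation response and synthesis of amino acids were described by 15 genes with 61 regions. Of these, 2 were specific to Res-shFabp7, both at Eif2ak4, the kinase that senses uncharged tRNA, and 1 to Res-ctrl, the Sesn2 region named above, since Sesn2 is on both lists. Over all regions, 2.28% and 0.155% were specific in this sense. Of 36 tested heights 2 were called higher and 0 lower, beside 2.72% and 1.19% of all regions. One was at Chac1, an enzyme that degrades glutathione and is a known target of the starvation response, and the other at Pycr1, an enzyme of proline synthesis. The Pycr1 region was not called with the depth covariate (limma adjusted p = 0.213) or from the authors' fold (limma adjusted p = 0.495).

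The Chac1 region, 135 bp from the gene on chromosome 2 (119350731 to 119351603), had pileups of 150, 154 and 137 with Res-shFabp7 and 62, 56 and 88 with Res-ctrl. This region was picked after its values were seen. Its percentiles were 86.9, 88.5 and 85.2 with Res-shFabp7 and 72.1, 72.0 and 71.9 with Res-ctrl. The difference of 0.54 ± 0.0768 (SE, limma adjusted p = 0.000153) was also called with relative depth as a covariate (limma adjusted p = 0.00211). Against Res-ctrl replicate 3 alone, a control arm with no spread of its own, the limma adjusted p was 0.00357. The region was not called from the authors' fold (limma adjusted p = 0.337).

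Enzymes that use amino acids were described by 13 genes with 129 regions. Of these, 2 were specific to Res-shFabp7 and 0 to Res-ctrl, where 2.28% and 0.155% of all regions were. The 2 were at Bcat1, which transaminates branched-chain amino acids, and at Odc1, which starts polyamine synthesis. Of 48 tested heights 2 were called higher, at Bcat1 and Gls2, and 0 lower, beside 2.72% and 1.19% of all regions. Neither was called with the depth covariate (limma adjusted p = 0.208 and 0.448) or from the authors' fold (limma adjusted p = 0.427 and 0.215). The median height difference was -0.0015 in the list of other transporters, -0.01 for sensing, 0.02 for the starvation response and 0.05 for use, and -0.01 over all regions tested.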

How the data were processed

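ATAC-seq was run on 6 libraries, 3 per group. Each was sequenced to between 35 and 75 M read pairs (76 bases per read), per the labels' protocols. The submitters' processing notes name MACS2 2.2.7.1, Bowtie 1.1.2, cutadapt 2.8 and Trim Galore 0.6.5, and build mm10. Read shifting, duplicate handling and the MACS2 mode are stated in no source used here. Per the file headers, the authors deposited 1 peak list per library. For every peak the authors give a p-value and a q-value on the −log10 scale, the pileup (a coverage signal taken at the summit) and the fold (a ratio over local background).

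From the values, starts and summits were judged to be 0-based, and coordinates are given counted from 1. Background was recovered from pileup and fold with 1 added to each, and the commonest such value of each list was taken for relative depth. A summit inside several genes went to the shortest, and a region to the gene of most of its peaks. Of the gene table, 21887 protein-coding genes were used. Heights of regions called in all 6 libraries (the highest pileup of each library) were ranked, turned into normal scores and fitted by limma 3.58.1 in R 4.3.3 with a variance trend and Benjamini-Hochberg adjustment over all 56610 regions at 0.05. The fit was also run on simulated heights, in which depth scaled all regions of a library alike. Ranking within a library removes such a scale, so that run cannot speak to the part of depth in the calls. Python 3.11.15, pandas 2.3.3 and SciPy 1.17.1 did the rest. Regions below the calling threshold in any library have no height, and depth limits which are called.

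The members and lists were chosen with earlier results of these data known, so their p-values are not independent evidence. Named regions are, per gene, the one with the highest smallest −log10 q, the one at an annotated start, group-specific ones and the extremes of the height fit. The other Slc7a5 regions, and further ones at Slc7a1, Slc1a5 and Slc7a6, were named outside this rule. From each gene list, at most 3 genes for each direction are named, by their number of group-specific regions. Genes of the lists with a height call are named for that call, after their values were seen. The Slc3a2, Rptor and Chac1 regions given in full were picked from these. Likeness to Slc7a5 was measured on peak numbers. The covariate for depth and the comparison with Res-ctrl replicate 3 alone were added after the data had been seen.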

Additional observations from a re-analysis of the deposited data

How the results depend on the processing

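Results at the 7 genes rest on few regions. Of group-specific regions only with Res-shFabp7 there were 0, and 1 only with Res-ctrl. Merging across 200 bp gave 1 and 0, a gene distance of 20 kb left 0 only with Res-ctrl, leaving out 1 library gave 0 to 3 and 1 to 2, and Res-ctrl replicate 3 alone as control gave 2 and 7. Height calls over all regions were 1538 higher and 674 lower with Res-shFabp7, with 3 and 0 at the 7 genes. They were 270 to 2102 higher and 174 to 727 lower without 1 library (1 to 3 higher at the 7 genes), lowest without Res-shFabp7 replicate 1. They were 140 and 64 with depth as a covariate and 132 and 17 against Res-ctrl replicate 3 alone, each with 0 at the 7 genes, and 0 and 0 from the authors' fold, where 7771 regions had an unadjusted limma p under 0.05. In the fold fit no member was called. With the replicate number as a block there were 1832 and 846, and the block changed no call at the 7 genes. Same-numbered libraries did not deviate together (correlations of -0.0245, 0.0150 and -0.0158) and not every library correlated best with its own number, so the numbers were not taken as pairs. Quantile-normalised heights and a q of 0.001 kept 3 calls, and merging across 200 bp, which joins the inner pair, gave 2. With lists of equal length the difference in peaks was -7.67 in all. By gene it was -3 at Slc38a2, -2.33 at Slc38a1, -1.67 at Slc7a1 and -1.67 at Slc43a1. It was 0.667 at Slc7a6, 0.333 at Slc7a5 and 0 at Slc1a5. Signs turned at named regions with small differences, to 0.0048 at the Slc1a5 end (-0.119 to 0.0048 over libraries left out) and 0.0067 at the Slc7a1 start (-0.042 to 0.0067) without Res-ctrl replicate 1, 0.0076 at Slc7a1 against Res-ctrl replicate 3 alone, and, from the fold, 0.053 at the tallest Slc38a2 region and -0.080 at the inner right Slc7a5 region. The cause was not tested.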

Other observations

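Of 6499 genes with at least 3 regions called in all 6 libraries, 2 had every such region called higher with Res-shFabp7, Slc7a5 and the B cell factor Pax5, and 0 had every such region called lower. In all, 49 genes had at least 3 regions called higher. This was looked for after the Slc7a5 values had been seen. The 3 Slc7a5 regions include the inner pair, which lies 75 bp apart. Merging across gaps of 200 bp left 2 regions at Slc7a5, fewer than the 3 asked for here. With relative depth as a covariate, or from the authors' fold, 0 of the 3 Slc7a5 regions were called. At Pax5, on chromosome 4 from 44704383 to 44704702, the pileup was 39, 37 and 45 with Res-shFabp7 and 15, 9 and 17 with Res-ctrl. None of the 3 Pax5 regions was called with relative depth as a covariate or from the authors' fold (limma adjusted p = 0.0656 and 0.0936 for the region given).

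At the 7 genes 26 regions were called in a single library. Of these, 4, 7 and 2 were called in Res-shFabp7 replicates 1, 2 and 3. In Res-ctrl replicates 1, 2 and 3 there were 8, 0 and 5. Of the 31253 such regions of the series, Res-shFabp7 replicates 1, 2 and 3 held 7683, 8666 and 5687. Res-ctrl replicates 1 and 3 held 2685 and 4582. The series number for Res-ctrl replicate 2 is not given here. With 26 regions, no count is read as a departure from the series.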
